A study of Mus musculus with 6 samples.

Results

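V(D)J recombination is the cutting and rejoining of gene segments from which lymphocytes build immunoglobulin and T cell receptor genes. The genes described here are Rag1 and Rag2, which encode the recombinase that cuts the segments, Dntt, which encodes the terminal transferase that adds nucleotides at the joints, and Ighm, the constant region gene of the immunoglobulin mu heavy chain. Their probe sets were taken by annotation: every probe set that names 1 of these 4 genes and no other. This gave 16 of the 45037 probe sets tested, 3 for Dntt, 1 for Rag1, 1 for Rag2 and 11 for Ighm, and 4 of the 18193 genes that have a probe set of their own. A further 4 probe sets name Ighm together with other heavy chain genes and were left out. They lay below background on all 6 arrays.

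The RNA came from mouse bone marrow LSK cells, which lack lineage antigens, carry Kit and Sca1, and hold the blood stem cells and early multipotent progenitors. The mice were 10 to 14 weeks old. Cells negative for both CD34 and Flt3 (CD34-Flt3-), positive for CD34 alone (CD34+Flt3-) and positive for CD34 with high Flt3 (CD34+Flt3hi) were collected, and 2 Affymetrix expression arrays were run for each group. The labels used here name no strain, genotype or treatment. They leave unsaid if replicate arrays stand for different mice or different sorts, so every p-value measures the spread of these 6 arrays and may hold technical spread alone. The series asked which expression changes accompany the different functions of these subpopulations.

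The recombinase is a complex of the Rag1 and Rag2 proteins, and both are needed for cutting. Terminal transferase belongs to DNA polymerase family X and is active during rearrangement in B and T cell precursors. The heavy chain locus is transcribed in unrearranged form before it is joined, so a signal of the mu constant region does not by itself show a rearranged gene. In adult marrow, cells with high Flt3 among the LSK cells include the progenitors from which lymphocytes arise.

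The promoters of the 3 recombination genes are shown because their probe sets read differently in the same RNA, as described below. Dntt rose in CD34+Flt3hi cells, Rag2 was above background without passing a test, and Rag1 lay below background on every array. Each sequence runs 5′ to 3′ on the strand of the gene, from 120 bases before the annotated start to 30 after it, and was taken from RefSeq for build GRCm38.p6. Capitals mark the E-box CANNTG, which E proteins bind and which reads the same on both strands, and GGGAA, the core bound by Ikaros proteins.
Dntt, chr19:41029155-41029304, plus strand: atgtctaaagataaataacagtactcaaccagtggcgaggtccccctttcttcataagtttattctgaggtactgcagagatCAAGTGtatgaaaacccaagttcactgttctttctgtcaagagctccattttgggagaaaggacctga
Rag1, chr2:101649503-101649652, minus strand: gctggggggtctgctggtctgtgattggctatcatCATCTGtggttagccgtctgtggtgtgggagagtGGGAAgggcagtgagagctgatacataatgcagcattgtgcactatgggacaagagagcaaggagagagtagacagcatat
Rag2, chr2:101624592-101624741, plus strand: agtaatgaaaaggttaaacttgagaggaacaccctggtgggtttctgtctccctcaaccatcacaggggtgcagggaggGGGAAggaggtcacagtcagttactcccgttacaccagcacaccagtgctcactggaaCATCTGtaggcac
In the 300-base window from 250 bases before the start to 50 after it, both strands read, Dntt held 3 E-boxes, Rag1 held 4 and Rag2 held 2, and each gene held GGGAA 1 time. An E-box stood in 72.3% of the 32851 promoters of the same length and GGGAA in 62.7%, so neither sets these genes apart. The initiator core TCANTCT, a start-site element, stood in 16% of promoters. It occurred 1 time in the Dntt window, on the opposite strand downstream of the start, and 1 time in the Rag2 window, upstream of it, both outside the bases printed above. No match was found in the Rag1 window.

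Array values are deposited intensities taken to log2. Background, a log2 of 4.50, is the 90th percentile of 27 unspiked bacterial control probe sets. Median linear intensity ran from 29.7 to 31.4 over the arrays, and precision is limited by their number. Replicate arrays correlated over all probe sets with a Pearson r of 0.964, 0.979 and 0.987 for the groups in the order of the sort (the CD34+Flt3hi pair last), and 7.29%, 2.45% and 0.822% of probe sets differed over 2-fold between them. The CD34-Flt3- arrays were therefore the least alike, and CD34-Flt3- replicate 1 stands apart in the Ighm results below. Groups were compared with limma, each probe set fitted singly over all 6 arrays and its p adjusted by Benjamini and Hochberg over all 45037, with a threshold of 0.05. For a single value, permuting 2 arrays against 2 exactly gives no p under 0.333. Sample titles hold a code whose meaning is not given. Replicate 2 of each group shares code A, and replicate 1 of both CD34+ groups shares code B, so differences within codes A and B rest on 1 array a group. CD34-Flt3- replicate 1 alone holds code C, so its gap from replicate 2 cannot be told apart from a difference between codes. In bulk RNA a larger share of cells with a transcript and more RNA per cell cannot be told apart.

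**Figure D1:**
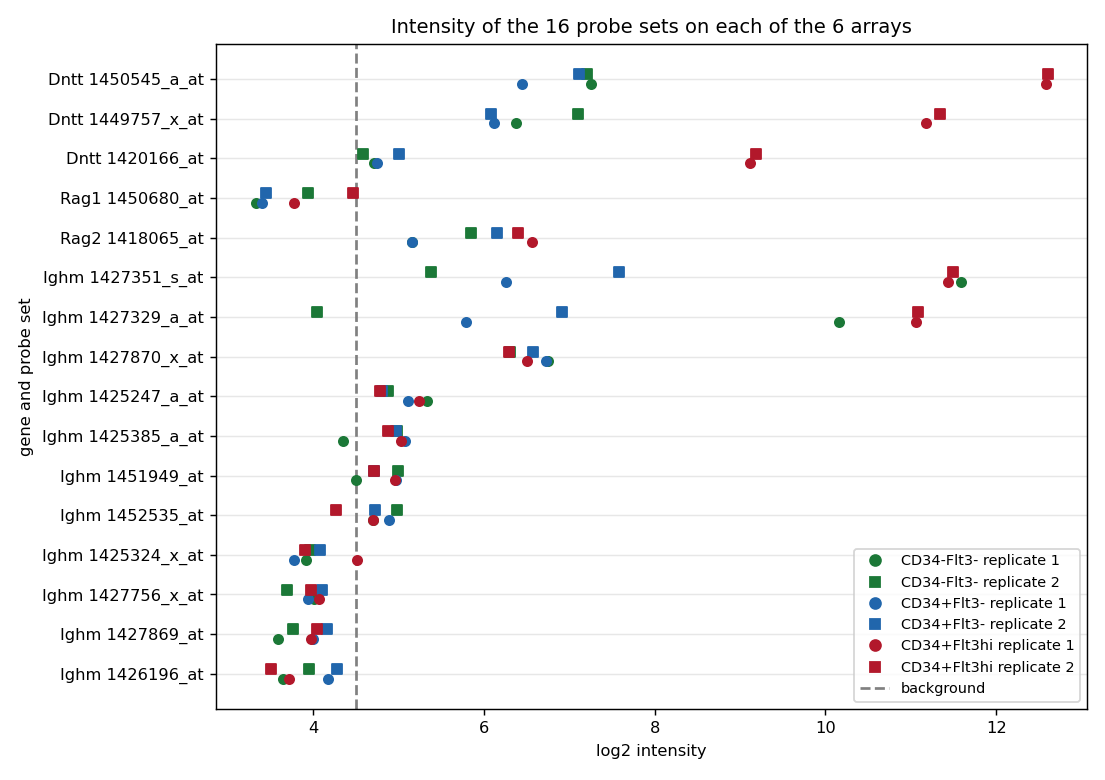
Log2 intensity (horizontal axis) of the 16 probe sets (rows) on each array. Colours are groups, circles are replicate 1, squares are replicate 2 and the dashed line is background at 4.50. The 3 Dntt probe sets are high on the CD34+Flt3hi arrays alone, the first 2 Ighm probe sets are also high on CD34-Flt3- replicate 1, and the other 9 Ighm probe sets stay between 3.50 and 6.75.

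With all 6 arrays in the fit, Dntt was the only member that passed the test, and it rose in CD34+Flt3hi cells on all 3 probe sets. Ighm probe sets 1427351_s_at and 1427329_a_at also read higher there than in CD34+Flt3- cells without passing, as described below. Probe set 1450545_a_at read 7.26 and 7.20 in CD34-Flt3- cells, 6.44 and 7.11 in CD34+Flt3- cells, and 12.59 and 12.61 in CD34+Flt3hi cells. In linear units this was 86.8 to 152.9 on the 4 Flt3- arrays and 6148 and 6236 on the CD34+Flt3hi arrays. The CD34+Flt3hi values lay far above all the others, and the Flt3- arrays of both groups were above background.

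CD34+Flt3hi cells had 56.5-fold more Dntt signal than CD34+Flt3- cells by this probe set (log2 difference 5.82 ± 0.27, SE, n = 2; limma adjusted p = 3.75e-05). Within code A the difference was 5.49 and within code B it was 6.15. Against CD34-Flt3- cells the signal was 41.2-fold higher (log2 difference 5.37 ± 0.27, adjusted p = 8.44e-05), and 5.40 within code A. Both log2 differences were the largest upward ones among all 45037 probe sets.

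The other Dntt probe sets gave the same direction at smaller size. Probe set 1449757_x_at read 6.38 and 7.10 in CD34-Flt3- cells, 6.12 and 6.08 in CD34+Flt3- cells, and 11.17 and 11.34 in CD34+Flt3hi cells. From CD34+Flt3- to CD34+Flt3hi cells it rose 35.8-fold (log2 5.16 ± 0.30, limma adjusted p = 0.000156; code A 5.26, code B 5.06). Against CD34-Flt3- cells it was 22.9-fold higher (adjusted p = 0.000106).

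Probe set 1420166_at is the dimmest, and its Flt3- values were just above background. It read 4.72 and 4.58 in CD34-Flt3- cells, 4.75 and 5.01 in CD34+Flt3- cells, and 9.12 and 9.19 in CD34+Flt3hi cells. It rose 19.4-fold from CD34+Flt3- to CD34+Flt3hi cells (log2 4.28 ± 0.28, limma adjusted p = 0.000236; code A 4.18, code B 4.38) and was 22.7-fold higher than in CD34-Flt3- cells (adjusted p = 9.42e-05). The 3 probe sets thus differ in the size of the fold and not in which arrays are high.

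From CD34-Flt3- to CD34+Flt3- cells Dntt did not pass the test on any probe set. The log2 differences were -0.45 (95% interval -1.06 to 0.15, limma adjusted p = 0.496), -0.64 (-1.31 to 0.02, adjusted p = 0.372) and 0.23 (-0.39 to 0.84, adjusted p = 0.771), in the order given above. The step into the Flt3hi gate differed from this earlier step for each of them. The difference between the 2 steps was 6.27 ± 0.47 for 1450545_a_at (adjusted p = 0.00404), the largest of all probe sets. It was 5.80 for 1449757_x_at (adjusted p = 0.0104) and 4.05 for 1420166_at (adjusted p = 0.0297).

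The recombinase genes passed in no comparison. Rag1, measured by 1450680_at, read 3.33 and 3.93 in CD34-Flt3- cells, 3.40 and 3.44 in CD34+Flt3- cells, and 3.77 and 4.46 in CD34+Flt3hi cells. All 6 values lay below background, so no fold is given. By limma the adjusted p was 0.785, 0.794 and 0.432 in the order of the sort, with CD34+Flt3hi against CD34-Flt3- last. At the Flt3hi gate the arrays did not overlap, as is the case for 38.2% of all probe sets. The log2 difference of these readings below background had an unadjusted limma p of 0.0248 and a 95% interval of 0.11 to 1.28. Of all probe sets, 5.36% had an unadjusted p under 0.05 there. The highest Rag1 reading was on CD34+Flt3hi replicate 2, just under background.

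Rag2, measured by 1418065_at, was above background on every array. It read 5.16 and 5.85 in CD34-Flt3- cells, 5.16 and 6.15 in CD34+Flt3- cells, and 6.56 and 6.40 in CD34+Flt3hi cells. The CD34+Flt3hi arrays were the highest, but both Flt3- groups held 1 low and 1 middle array and overlapped each other. In code B, Rag2 was 1.40 higher on the CD34+Flt3hi array than on the CD34+Flt3- array, and in code A it was 0.25 higher.

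The Rag2 differences did not pass. Between CD34+Flt3hi and CD34+Flt3- cells the log2 difference was 0.82 ± 0.38 (95% interval -0.02 to 1.67, limma adjusted p = 0.942). Against CD34-Flt3- cells it was 0.98 ± 0.38 (0.13 to 1.82, adjusted p = 0.248, unadjusted p = 0.0275). Between the Flt3- groups it was 0.15 (-0.69 to 0.99, adjusted p = 0.905). At the Flt3hi gate the Rag2 interval allows a change of up to log2 1.67, while the smallest Dntt difference there was 4.28. Against CD34-Flt3- cells these values were 1.82 and 4.51.

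Ighm, the mu heavy chain gene, split into 2 kinds of probe set, a split made after its values were seen. Its probe sets 1427351_s_at and 1427329_a_at spanned log2 ranges of 6.21 and 7.05 over the 6 arrays, and each of the other 9 spanned between 0.42 and 0.77. Probe set 1427351_s_at read 11.59 and 5.38 in CD34-Flt3- cells, 6.26 and 7.58 in CD34+Flt3- cells, and 11.43 and 11.50 in CD34+Flt3hi cells. Probe set 1427329_a_at read 10.16 and 4.04 in CD34-Flt3- cells, 5.79 and 6.91 in CD34+Flt3- cells, and 11.07 and 11.09 in CD34+Flt3hi cells. On both, the CD34+Flt3hi arrays and CD34-Flt3- replicate 1 were high, the CD34+Flt3- arrays were in between, and CD34-Flt3- replicate 2 was lowest, below background on 1427329_a_at.

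The 2 CD34-Flt3- arrays, which hold codes C and A, disagreed about Ighm more than about any other named gene. Among all 45037 probe sets, the gap between these arrays was largest for 1427351_s_at (6.21) and next largest for 1427329_a_at (6.12). The next 3 gaps belonged to probe sets that name Igkc, the kappa light chain constant region gene, together with other kappa genes. These read 9.48, 9.20 and 9.76 on CD34-Flt3- replicate 1 and between 3.06 and 5.07 on the other 5 arrays. Igkv8-30, a kappa variable segment gene, read 7.41 there and at most 4.14 elsewhere.

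Of the 8 measured plasma cell markers, 4 read highest on CD34-Flt3- replicate 1 (Jchain, Mzb1, Xbp1 and Ell2) and 4 did not (Sdc1, Derl3, Tnfrsf17 and Prdm1). Igkc, Igkv8-30, Jchain and Mzb1 are named here after their values were seen. Jchain, the gene of the joining chain of secreted antibodies, read 5.65 there and 3.63 to 4.07 on the other arrays. Mzb1, which encodes a chaperone of antibody secretion, read 6.94 there and 5.28 to 6.20 elsewhere. Sdc1 read 4.88 there, within its range of 4.87 to 5.78 elsewhere, and Prdm1 was below background on every array. The number of the 8 above background was 6 on that array and 5 on each other array. Their summed linear intensity was 1503 against 729.1 to 1104, of which Xbp1, bright on every array, gave 1025. The summed linear intensity of the 17 measured B lineage markers was 1053 to 1245 in CD34-Flt3-, 1097 to 1102 in CD34+Flt3- and 1511 to 1520 in CD34+Flt3hi cells. Erythroid markers also set CD34-Flt3- replicate 1 apart. The sum of the 5 measured erythroid markers was 1251 there, 351.5 on replicate 2 and 165 to 468.3 on the CD34+ arrays. Klf1, the brightest of them on that array, read 9.92 there, 7.46 on replicate 2 and 5.31 to 7.95 on the CD34+ arrays. The sum of the 14 measured T lineage markers did not set that array apart. It was 905.6 there, 1294 on replicate 2 and 786.2 to 1215 on the CD34+ arrays. The kappa probe sets were not high on the CD34+Flt3hi arrays, where Ighm was as high as on CD34-Flt3- replicate 1. The part of these markers in the Ighm result was not tested.

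**Figure D2:**
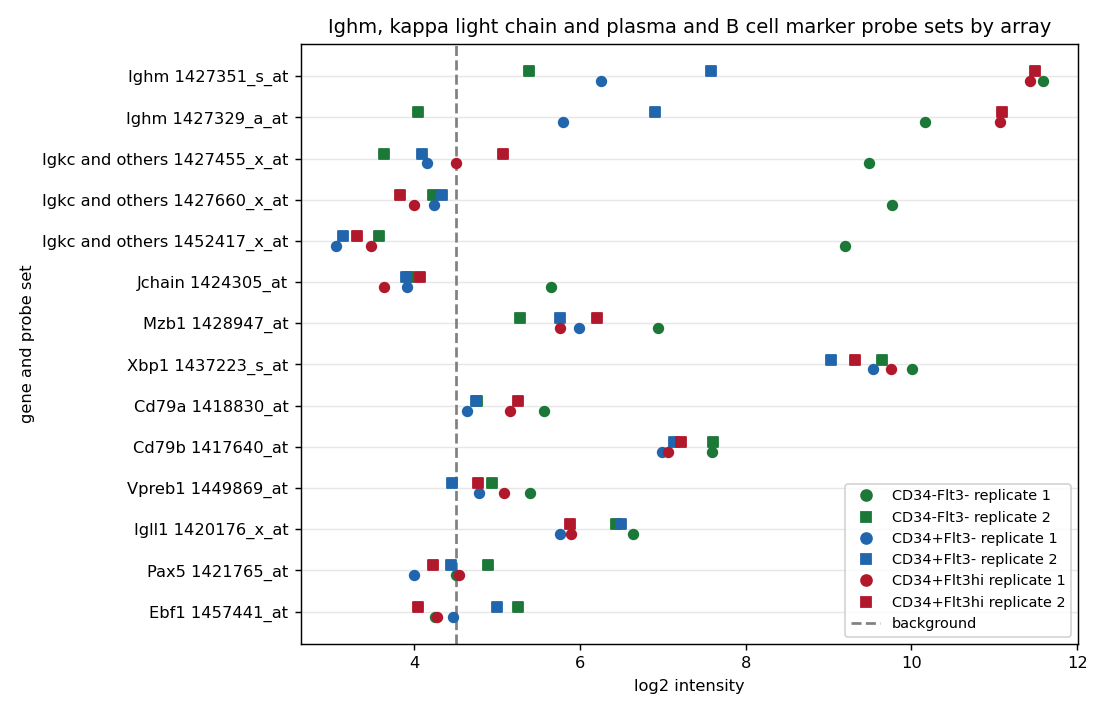
Log2 intensity (horizontal axis) of Ighm, kappa light chain, plasma cell and B cell marker probe sets (rows) on each array. Colours are groups, circles are replicate 1, squares are replicate 2 and the dashed line is background. Ighm is high on CD34-Flt3- replicate 1 and both CD34+Flt3hi arrays, while the 3 kappa probe sets (labelled Igkc and others) exceed 9 on CD34-Flt3- replicate 1 alone.

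With all arrays in the fit, the Ighm differences carried large errors and did not pass. From CD34+Flt3- to CD34+Flt3hi cells the log2 difference was 4.54 ± 1.42 for 1427351_s_at (limma adjusted p = 0.534, unadjusted p = 0.00938; code A 3.91, code B 5.18). For 1427329_a_at it was 4.73 ± 1.40 (adjusted p = 0.455, unadjusted p = 0.0068; code A 4.18, code B 5.27). The 4 arrays of these groups do not overlap on either probe set, as is the case for 38.2% of all probe sets. The gap between the CD34-Flt3- arrays enters this comparison only through the pooled spread.

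Without CD34-Flt3- replicate 1 the same differences passed, with limma adjusted p of 0.000297 and 0.000192, and with only the 4 arrays compared it was 0.000265 and 0.00013. Without CD34-Flt3- replicate 2 they passed as well (0.000265 and 0.000192). In those fits the lone CD34-Flt3- array is assumed to vary like the other groups. The size of the difference stayed the same, since the arrays that give it did.

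Comparisons with CD34-Flt3- cells depend on which array stands for that group. From CD34-Flt3- to CD34+Flt3- cells 1427351_s_at differed by -1.56 ± 1.42 (limma adjusted p = 0.676), by 1.54 without replicate 1 (adjusted p = 0.0929) and by -4.67 without replicate 2 (adjusted p = 0.00145). For 1427329_a_at the difference was -0.75 ± 1.40 (adjusted p = 0.865) and, without replicate 2, -3.81 (adjusted p = 0.0023). Without replicate 1 it was at least 1.85 (adjusted p = 0.0184 for the fitted value), since replicate 2 lay below background. The direction therefore turned with the array left out.

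Between CD34+Flt3hi and CD34-Flt3- cells, 1427351_s_at differed by 2.98 ± 1.42 (limma adjusted p = 0.364). The difference was 6.08 without replicate 1 (adjusted p = 6.07e-05) and -0.12 without replicate 2 (adjusted p = 0.918). For 1427329_a_at it was 3.98 (adjusted p = 0.193), at least 6.58 without replicate 1 (adjusted p = 2.94e-05 for the fitted value) and 0.92 without replicate 2. Within code A, which holds CD34-Flt3- replicate 2, the difference was 6.12 for 1427351_s_at and at least 6.59 for 1427329_a_at.

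The other 9 Ighm probe sets stayed between 3.50 and 6.75 on every array and showed none of these gaps. Their largest group difference in size was -0.61 at the Flt3hi gate, for 1426196_at, which lay below background on every array. Of all 11, 3 were above background on all arrays, 5 on some and 3 on none. The brightest of the 9, 1427870_x_at, read 6.75 and 6.31 in CD34-Flt3- cells, 6.72 and 6.58 in CD34+Flt3- cells, and 6.51 and 6.29 in CD34+Flt3hi cells. An x or s suffix marks a probe set that can bind transcripts of more than 1 gene. Where in the heavy chain gene each probe set lies was not used here, so which mu transcripts the 2 kinds measure is not known.

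**Figure D3:**
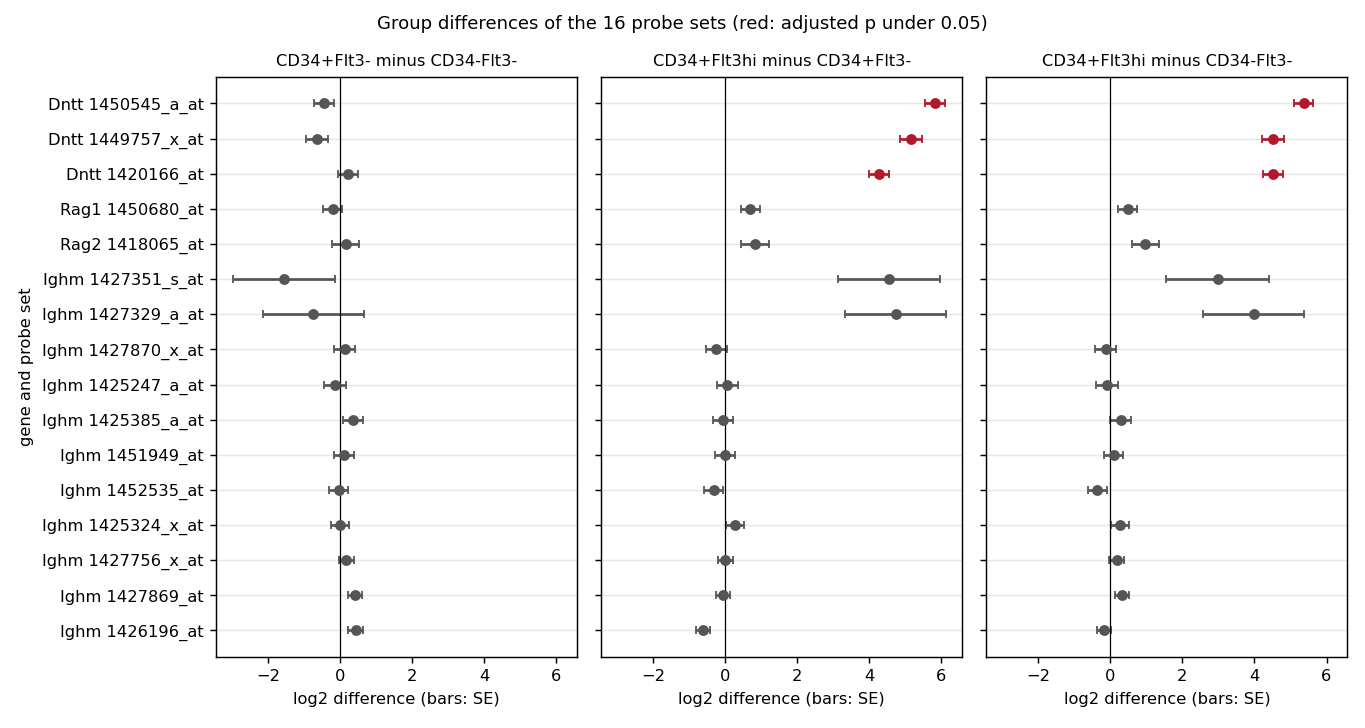
Log2 difference between groups (horizontal axis) of the 16 probe sets (rows) in the 3 comparisons (panels). Points are limma estimates, bars are the SE and red marks an adjusted p under 0.05. The 3 Dntt probe sets are red in both comparisons of CD34+Flt3hi cells, and the first 2 Ighm probe sets have the widest bars.

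Of the 16 member probe sets, 0 passed between CD34-Flt3- and CD34+Flt3- cells by limma, and 0 had an unadjusted p under 0.05. The test called 0.89% of all probe sets there, and 14% had an unadjusted p under 0.05. From CD34+Flt3- to CD34+Flt3hi cells 3 of 16 passed, all of them Dntt and all higher, where 0.295% of all probe sets were called. At an unadjusted p under 0.05 there were 7 of 16, against 5.36% of all probe sets. They include Rag1 and Ighm 1426196_at, both below background on every array, and 1426196_at read lower in CD34+Flt3hi cells (-0.61). Between CD34+Flt3hi and CD34-Flt3- cells the same 3 passed, where 3.51% of all probe sets were called, and 5 had an unadjusted p under 0.05, against 15.2% of all probe sets. The median log2 difference of the members was 0.04, 0.16 and 0.31, and that of all probe sets was -0.05, 0.02 and -0.03. The 3 Dntt probe sets measure 1 gene and are not independent.

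Genes that work with the members were read from their brightest probe set. Their lists were chosen with earlier results of these data known, so list counts and medians are a description. Of the 18193 genes, 0.539% were called higher and 0.77% lower from CD34-Flt3- to CD34+Flt3- cells, 0.269% and 0.165% from CD34+Flt3- to CD34+Flt3hi cells, and 2.19% and 2.93% between CD34+Flt3hi and CD34-Flt3- cells. An unadjusted p under 0.05 was reached by 16.6%, 6.54% and 17.9% of genes in these comparisons. The median of all genes was -0.10, 0.03 and -0.07.

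Dntt was the only one of the 4 family X polymerase genes that passed in any comparison. Polm, which encodes the polymerase most similar to terminal transferase, read 5.38 and 5.35 in CD34-Flt3- cells, 5.15 and 5.24 in CD34+Flt3- cells, and 4.62 and 4.84 in CD34+Flt3hi cells. At the Flt3hi gate the log2 difference of Polm was -0.46. Poll, which fills gaps during end joining, differed by 0.17 there, and Polb, the polymerase of base excision repair, by -0.15.

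The end joining factors close the breaks that the recombinase makes, and 13 of the 15 listed were measured, 12 of them above background on all arrays. By limma 0 passed from CD34+Flt3- to CD34+Flt3hi cells, 1 at an unadjusted p under 0.05 (median log2 difference 0.27). Xrcc6, which encodes the Ku70 end-binding subunit, differed by 0.85 there (limma adjusted p = 0.403) and Prkdc, the DNA-dependent protein kinase gene, by 0.33. Hmgb2, whose DNA-bending protein assists Rag cutting, rose at the earlier step instead. It read 10.66 and 10.28 in CD34-Flt3- cells, 11.75 and 11.61 in CD34+Flt3- cells, and 12.05 and 11.94 in CD34+Flt3hi cells. The first step gave a log2 difference of 1.22 ± 0.17 (adjusted p = 0.0206) and the outer groups one of 1.53 (adjusted p = 0.0016), while its other 2 probe sets gave 0.34 and 1.63 at the first step, the latter past the threshold (adjusted p = 0.0118). It was the 1 factor of 13 that passed in either comparison, where the medians were 0.07 and 0.53.

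Of the 32 listed transcription factors that act at Rag, Dntt or heavy chain loci, 30 were measured. From CD34+Flt3- to CD34+Flt3hi cells 2 rose and 0 fell, with a median of 0.26. Irf8, a factor of B cells and myeloid cells, read 5.79 and 6.17 in CD34-Flt3- cells, 5.86 and 6.84 in CD34+Flt3- cells, and 10.11 and 9.57 in CD34+Flt3hi cells (log2 difference at the Flt3hi gate 3.49 ± 0.37, limma adjusted p = 0.00351). Satb1, a chromatin organiser of lymphoid cells, read 6.91 and 6.75, then 7.93 and 8.67, then 11.32 and 11.09 in the same order of groups (2.91 ± 0.29, adjusted p = 0.00268). Irf8 had its high arrays where Dntt did, while Satb1 had already risen at the first step (1.47, adjusted p = 0.0495). Its 4 other probe sets did not pass there (-0.54 to 0.48), and 2 of them passed at the Flt3hi gate (3.38 and 3.02). The other Irf8 probe set rose by 1.80 at that gate (adjusted p = 0.0497). Ikzf1, the Ikaros gene, differed by 1.01 at the Flt3hi gate (adjusted p = 0.249) and Tcf3, which encodes the E proteins E12 and E47, by 0.11.

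At the first step Runx3 rose beside Satb1 (1.80, limma adjusted p = 0.0298), and 0 of the 30 fell, with a median of -0.19. The other measured probe set of Runx3 gave 0.40 (adjusted p = 0.572). Between the outer groups 5 factors were higher and 2 lower, with a median of 0.18. The higher ones were Satb1 (4.38), Irf8 (3.87), Runx3 (1.77), Spi1 (1.26) and Tcf4 (0.94). The lower ones were the T cell factors Gata3 (-2.08) and Bcl11b, which was at least 3.59-fold lower because its CD34+Flt3hi values lay below background. Ebf1 and Pax5, which set B cell identity, had group means between 4.16 and 4.75 and did not pass in any comparison. Each was above background on only 2 arrays, and their CD34+Flt3hi means (4.16 and 4.38) lay below it.

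Of 14 early lymphoid receptor and surface genes 12 were measured, and 2 rose at the Flt3hi gate while 0 fell. Notch1, the receptor that directs T cell fate, read 8.27 and 8.06 in CD34-Flt3- cells, 7.22 and 7.71 in CD34+Flt3- cells, and 9.95 and 10.15 in CD34+Flt3hi cells (log2 difference at the Flt3hi gate 2.59 ± 0.27, limma adjusted p = 0.00323, and 1.33 with adjusted p = 0.158 by its other probe set). Btla, an inhibitory receptor of lymphocytes, read 4.61 and 4.75, then 5.36 and 5.35, then 7.92 and 8.29 in that order (2.75 ± 0.28, adjusted p = 0.00314). The median of the list, which holds the sort antigen Flt3 (2.56), was 1.14 there, against 0.03 for all genes. Il7r, the interleukin 7 receptor gene, read 5.68 and 5.21 in CD34-Flt3- cells. It read 4.41 and 4.44 in CD34+Flt3- cells, below background, and 5.24 and 6.30 in CD34+Flt3hi cells. The difference at the Flt3hi gate did not pass (limma adjusted p = 0.341), and that against CD34-Flt3- cells was 0.32 (95% interval -0.48 to 1.13).

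At the first step 0 of these genes rose and Ltb, the lymphotoxin beta gene, fell by 1.38 on the log2 scale (limma adjusted p = 0.0465), with a list median of 0.02. Between the outer groups 5 were higher and Ltb was lower (-1.68), with a median of 1.01. The higher ones were Btla (3.43), Flt3 (3.48), by which the cells were sorted, Notch1 (1.88), Cd27 (1.24) and Cd244a, which was at least 6.47-fold higher. The other Cd244a probe set differed by 0.29 (adjusted p = 0.685).

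The 9 measured genes of the surrogate light chain and pre-B receptor, which act after a heavy chain is made, showed no call in any comparison, with 1 at an unadjusted p under 0.05 in each and medians of -0.19, 0.08 and 0.02. By limma, Blnk, an adaptor of pre-B receptor signalling, had the largest difference at the Flt3hi gate (1.20, adjusted p = 0.257). Vpreb1, a surrogate light chain gene, read 5.40 and 4.94 in CD34-Flt3- cells, 4.78 and 4.45 in CD34+Flt3- cells, and 5.08 and 4.77 in CD34+Flt3hi cells. Igll1, the other surrogate light chain gene, differed by -0.25 at the Flt3hi gate.

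**Figure D4:**
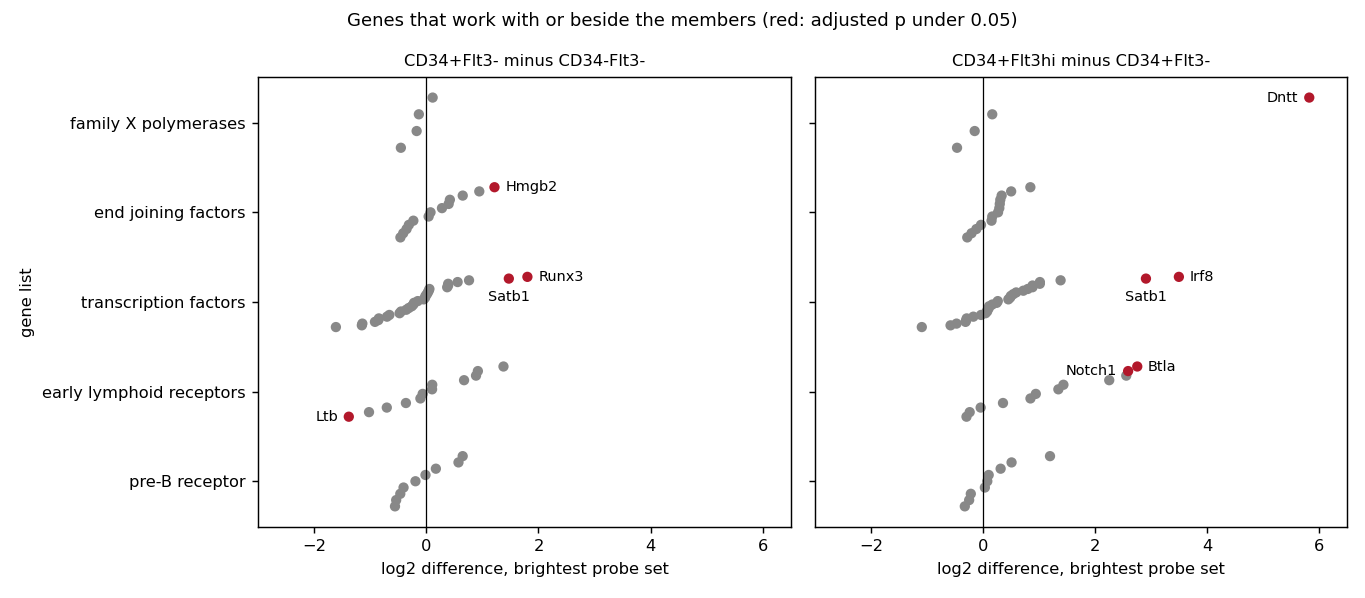
Log2 difference (horizontal axis) of each measured gene of 5 lists (rows), read from its brightest probe set, at the 2 steps of the sort (panels). Each point is 1 gene, and red points with names have a limma adjusted p under 0.05. Dntt lies at 5.82 in the right panel, apart from the 3 other family X polymerases, and no end joining or pre-B receptor gene is red there.

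Of 49 probe sets naming 1 of 29 immunoglobulin and T cell receptor genes other than Ighm, 22 were above background on any array and 9 on all. The kappa probe sets that name several genes, described above, are not among them. Among the 9, probe sets of Trav9d-3, a T cell receptor alpha variable segment, and of Igha, the alpha heavy chain constant region, are named after their values were seen. One probe set of Trav9d-3 read 6.25 to 7.12 over the 6 arrays, and one of Igha read 5.47 to 6.59. At the Flt3hi gate 0 rose and 0 fell by limma, and 4 had an unadjusted p under 0.05. The median difference was 0.02, -0.10 and -0.04 in the 3 comparisons. Trbv1 is a T cell receptor beta variable segment. Its probe set with an x suffix was at least 3.20-fold lower from CD34-Flt3- to CD34+Flt3- cells (limma adjusted p = 0.0256). Between the outer groups this probe set was at least 3.33-fold lower in the CD34+Flt3hi cells (adjusted p = 0.00197). The other Trbv1 probe set read 3.56 to 4.11, below background on all 6 arrays. It did not pass in these comparisons (limma adjusted p = 0.788 and 0.846). Trgv1, a gamma variable segment, was at least 1.84-fold lower between the outer groups (adjusted p = 0.0298).

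Markers of other cell types were read beside the member results. At the Flt3hi gate, where Dntt rose, no B lineage, plasma, T lineage, NK, plasmacytoid dendritic, neutrophil and monocyte or erythroid marker was called by limma when read from its brightest probe set. At an unadjusted p under 0.05 there were 3 of 17, 1 of 8, 3 of 14, 1 of 7, 1 of 7, 3 of 10 and 0 of 5 of them in this order, against 6.54% of all genes. Sdc1, a plasma cell marker, is an exception by other probe sets: its brightest gave 0.86 (adjusted p = 0.563), and 2 of its 3 others were at least 4.05-fold (adjusted p = 0.00756) and 6.08-fold higher (adjusted p = 0.000934). The summed linear intensity of the 7 plasmacytoid dendritic markers was 460.9 to 467.6 in CD34+Flt3- and 559.3 to 581.2 in CD34+Flt3hi cells. That of the 14 measured T lineage markers was 1056 to 1215 and 786.2 to 804.6. Between the outer groups, the B lineage marker Ly86 was higher (2.15), Pou2af1 was lower with both groups below background, Nkg7 (1.61) and Csf1r (3.16) were higher, and Thy1 (-1.53), Bcl11b and Klf1 (-3.19) were lower. The part of such cells in the Dntt result was not tested. Of the sort antigens, Cd34 rose at the first step (1.48, limma adjusted p = 0.0265), and Flt3 differed by 2.56 at the Flt3hi gate (adjusted p = 0.056).

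Genes whose pattern was most like each member were found by Pearson's r over the 6 arrays, as a description. Candidates were about 1300 probe sets of 1 named gene, above background on at least 2 arrays and with a log2 range of at least 2. A gene could enter by the CD34+Flt3hi arrays alone, as Sema3d did. For Dntt 78 of 1300 had an r over 0.9, led by Cnn3, a calponin gene (0.996), Sdc1, the gene of the proteoglycan syndecan-1 (0.993, read from a probe set that is not its brightest), Dtx4, a Deltex gene (0.987), and Emb, the embigin gene (0.986). Then came Sema3d, Emp1, Wfdc17 and Evl, down to 0.983. Cnn3 read between 4.70 and 5.44 on the 4 Flt3- arrays and 9.09 and 9.69 on the CD34+Flt3hi arrays, so it was high on the same 2 arrays as Dntt.

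Rag2, whose own log2 range of 1.40 is below that asked of candidates, had 10 of 1303 over 0.9. Rasa4 (0.977) and Ap1s2 (0.95) led, followed by Itgb5, Cep164, Il6ra, Flt3 (0.920), Apcdd1 and Dusp5. Rasa4 read 4.78 and 5.80 in CD34-Flt3- cells, 4.97 and 6.64 in CD34+Flt3- cells, and 7.50 and 7.66 in CD34+Flt3hi cells. Like Rag2, it was lower on replicate 1 than on replicate 2 of both Flt3- groups. For Ighm probe set 1427351_s_at 6 of 1301 exceeded 0.9, led by Sh3bp5 (0.967) and St6gal1 (0.953), a sialyltransferase gene, and followed by Mbd2, Calcrl, Mtm1, Psme4, Epm2aip1 and Atxn2. Sh3bp5 read 8.36 and 6.06, then 6.85 and 6.56, then 8.64 and 8.75 in the order of groups, so it too was high on CD34-Flt3- replicate 1. Rag1 has no such list because it was not above background on any array.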

How the data were processed

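RNA of 6 samples, 2 in each of 3 sorted LSK groups, was measured on Affymetrix arrays. Per the labels' protocols it was amplified in a small-sample protocol with a second round of in vitro transcription. The deposited values are signal intensities that the authors made with RMA, per the submitters' processing notes, which give no version and do not say which arrays were processed together. Their linear scale is inferred from their range, 6.50 to 24173, and log2 was taken. Of 45101 probe sets 64 controls were left out. Symbols came from the platform annotation and were updated by gene identifier (99.4% matched). No protein sequences and no probe positions were used.

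The test was limma (version 3.58.1, in R 4.3.3, with the data.table package at 1.17.8) on all 45037 probe sets, moderated by empirical Bayes with a trend on intensity (3 residual and 7.21 prior degrees of freedom). Tests were two-sided. A group with its mean below background had such values raised to background, which makes the fold a lower bound ("at least"), and no fold is given where both groups lay below. A gene's level was that of its brightest probe set on average. Named were the members, the up to 4 genes of a list with the smallest adjusted p (up to 2 as values where none passed) and the 8 genes most like a member. Some further genes were named after their values were seen: all those called between the outer groups, the genes high on CD34-Flt3- replicate 1, and the values given for Poll, Polb, Ikzf1, Tcf3, Ebf1, Pax5, Il7r, Vpreb1 and Igll1. The members and lists were chosen with earlier results of these data known. The scripts were tested on simulated data. Python 3.11.15 with pandas 2.3.3, scipy 1.17.1 and matplotlib 3.10.9 read the promoters and drew the plots.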

Additional observations from a re-analysis of the deposited data

How the results depend on the processing

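The alternatives were a replicate block by title code, no intensity trend, repeated quantile normalization, median centring, leaving out dim probe sets, only probe sets with 1 symbol, the brightest or the mean probe set per gene, only the 4 arrays compared, and leaving out each array. All 3 Dntt probe sets passed at both comparisons of CD34+Flt3hi cells in each setting that tests them singly, and so did Dntt read as 1 gene (highest limma adjusted p 0.0175). Member probe sets past the threshold numbered 0 from CD34-Flt3- to CD34+Flt3- cells, and 0 to 2 when 1 array was left out. From CD34+Flt3- to CD34+Flt3hi cells there were 3, 3 to 5 with 1 array left out, 5 with only the 4 arrays, and 1 of 4 genes by the brightest or by the mean probe set. Between the outer groups there were 3, 3 to 5 with 1 array left out, and 1 of 4 genes by either summary. The added calls with an array left out, with 4 arrays or with the block were Ighm probe sets. With 1 array left out, the first-step difference ranged from -0.34 to 0.65 for Rag2, from -4.67 to 1.54 for Ighm 1427351_s_at and from -3.81 to 2.31 for 1427329_a_at (as fitted, the upper end against an array below background), and the difference of the outer groups for 1427351_s_at from -0.12 to 6.08. Same-numbered arrays were not treated as paired: deviations of the code A arrays from their group means correlated at 0.268, 0.0775 and 0.0955. With the replicate block 2, 5 and 5 member probe sets passed in the 3 comparisons, and the first-step Ighm differences became 1.89 and 2.59 (as fitted), because the block fits CD34-Flt3- replicate 1 exactly and leaves replicate 2 to stand for its group. With background at the 95th percentile the bounded log2 difference of Dntt 1420166_at between the outer groups was 4.35 instead of 4.51. Groups of 2 arrays allow no check of single arrays as outliers, and Rag1 lay below background on all of them.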
